A study of Homo sapiens with 45 samples.

Results

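The comparison described here is PC3 cells transfected with a precursor of miR-205 against PC3 cells transfected with a negative control precursor, called miR-NC. PC3 is a human prostate cancer cell line. The members were the 3 arrays labelled miR-205 and the 3 labelled miR-NC for this line, 6 of the 45 arrays of the series, and all genes that could be tested on them. Both groups received 33 nM of precursor with Lipofectamine 2000 at exponential growth in RPMI 1640 with serum, and RNA was taken 48 h later. 2 other PC3 groups of 3 arrays, transfected in the same way with precursors of miR-203a and miR-429, show where a value lies in the same line with another small RNA. The ovarian cancer lines HEY and SKOV3, transfected with the same miR-205 and miR-NC precursors, serve for the test of whether the response differs between lines. The study asks how far cells of different cancers move from a mesenchymal to an epithelial state when given these miRNAs. A pulse of 1 precursor at 1 dose and 1 time in a single line is a model of the acute response only, and the level of mature miR-205 in the cells was not measured on these arrays.

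MicroRNAs are short RNAs that guide Argonaute proteins to transcripts carrying a match to their seed, and those transcripts are then degraded or translated less. miR-205 is made by normal basal epithelial cells, also those of the prostate gland, is reduced in many prostate cancers, and is known for lowering ZEB1 and ZEB2, repressors of epithelial genes. A transfected precursor is a short double-stranded RNA. Cells carry sensors for such RNA, which switch on interferon genes, and secreted interferon then raises a large set of antiviral genes through its receptor, the JAK kinases and the transcription factor complex that holds IRF9.

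The mature strands of the precursor are shown first because the seed sets which transcripts they can reach. The labels name miR-205 without an arm, so both strands of the hairpin are given, 5′ to 3′, with the seed (bases 2 to 8) in capitals. The strand that the labels' miR-203a most often stands for in the literature follows. The sequences are those of RefSeq on GRCh38.p14, at chr1:209432166-209432187, chr1:209432203-209432223 and chr14:104117469-104117490, all on the plus strand.
hsa-miR-205-5p: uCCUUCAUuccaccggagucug
hsa-miR-205-3p: gAUUUCAGuggagugaaguuc
hsa-miR-203a-3p: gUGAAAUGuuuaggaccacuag
The 3 seeds differ from one another, so no 2 of these strands belong to 1 seed family.

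Values are log2 intensities of an Affymetrix array after RMA (background correction, normalization between arrays and 1 summary per probe set), so a difference of 1 means a 2-fold change. The arrays do not share 1 distribution: their medians were 4.92 to 4.94 with miR-205, 4.94 to 4.97 with miR-203a, 4.49 to 4.51 with miR-429 and 4.89 to 4.93 with miR-NC. Whether all arrays were normalized in 1 run is not given in the sources used here. 15029 genes were tested, each by its brightest probe set. A gene was called where its adjusted p in limma's test over all genes (Benjamini-Hochberg) was under 0.05, and every adjusted p below comes from that test. Levels under 4.88, the median of all values, lie near background, and a change of a gene with a group mean under it is only a bound on the size. Nothing in the labels tells whether a group's arrays stem from separate cultures, and the p-values therefore cover only array-to-array spread, which may be technical. Pairs of arrays from 1 transfected group correlated at 0.981 or more over all probe sets. The 9 arrays labelled untransfected were kept out of the fit because marker genes on them go against their line labels.

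The line label of these arrays was checked first. Catenin alpha 1 (CTNNA1), an adhesion gene that PC3 cells are known to have lost, lay between 2.77 and 4.34 on the 12 transfected PC3 arrays, against 11.6 to 12.5 on the HEY arrays and 12.4 to 12.7 on the SKOV3 arrays. STAT3, also known to be lost in PC3, lay between 1.58 and 3.24 on the PC3 arrays and at 8.45 or more on the others. HOXB13, a prostate transcription factor, had a median of 7.10 on the PC3 arrays, above 4.75 for HEY and 6.32 for SKOV3, but its PC3 range of 4.85 to 8.38 overlapped both. E-cadherin (CDH1) was between 9.61 and 10.8 on the PC3 arrays. The epithelial keratins KRT8 and KRT18 were lowest in PC3, with medians of 7.13 and 8.87, against 8.72 and 10.8 in HEY and 12.4 and 12.6 in SKOV3. MUC16, an ovarian marker, did not separate the lines, with medians of 4.01 in PC3, 4.19 in HEY and 4.03 in SKOV3. The ovarian markers PAX8 and SOX17 were lower on the PC3 arrays than on every array of the other lines, whereas WT1 was between 9.52 and 10.2, a range that overlapped HEY. The prostate secretory genes KLK3 and KLK2 reached no more than 5.20 on the PC3 arrays. The blood cell markers PTPRC, CD3E, CD14 and MS4A1 stayed under 4.88 on all 12 transfected PC3 arrays, and HBB lay between 3.98 and 5.04. Of the 9 blood cell genes listed only LYZ and HBB passed the level filter, and LYZ was called lower with miR-205, by 1.32 against miR-NC, while HBB was not called (0.27).

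The control probe sets of the array differed between the groups. The 5′ probe set of GAPDH, a glycolytic enzyme used as a quality control, stood at 9.28, 8.72 and 8.11 on the miR-205 arrays, against 3.94, 4.89 and 6.29 on the miR-NC arrays, a difference of 3.66 ± 0.39 (SE, adjusted p = 7.24e-09 over all probe sets in limma). The 5′ probe set of ACTB, which encodes beta-actin, stood at 7.83, 7.51 and 7.01 on the miR-205 arrays, against 4.22, 4.91 and 5.03 on the miR-NC arrays. No miR-205 array overlapped a miR-NC array in either probe set. The 3′ probe sets lay closer together. That of GAPDH was at 12.26, 12.10 and 12.06 on the miR-205 arrays, against 10.19, 10.24 and 10.52 on the miR-NC arrays, and that of ACTB at 13.77, 13.73 and 13.77 against 13.56, 13.37 and 13.29. The miR-203a arrays were the PC3 group nearest in this respect, with the GAPDH 5′ probe set at 10.38, 9.97 and 9.62 and the ACTB 5′ probe set at 8.58, 8.57 and 8.18, both above the miR-205 arrays. The distance between the 3′ and 5′ probe sets of GAPDH averaged 3.44 on the miR-205 arrays, 2.34 on the miR-203a arrays and 5.28 on the miR-NC arrays. For ACTB it averaged 6.31, 5.20 and 8.69. In SKOV3 the GAPDH distance averaged only 0.03 with miR-205 and 0.07 with miR-NC. These probe sets serve to show differences in RNA and labelling. The PC3 arrays thus had a strong excess of 3′ signal that differed between the 2 groups compared, and its cause was not tested. All 9 E. coli and phage P1 spike-in probe sets for the hybridisation were lower on the miR-205 arrays than on the miR-NC arrays, by a median of 0.46, and 7 of them were called lower. Of the 12 B. subtilis probe sets none was called in limma's test, with a median of -0.06.

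**Figure D1:**
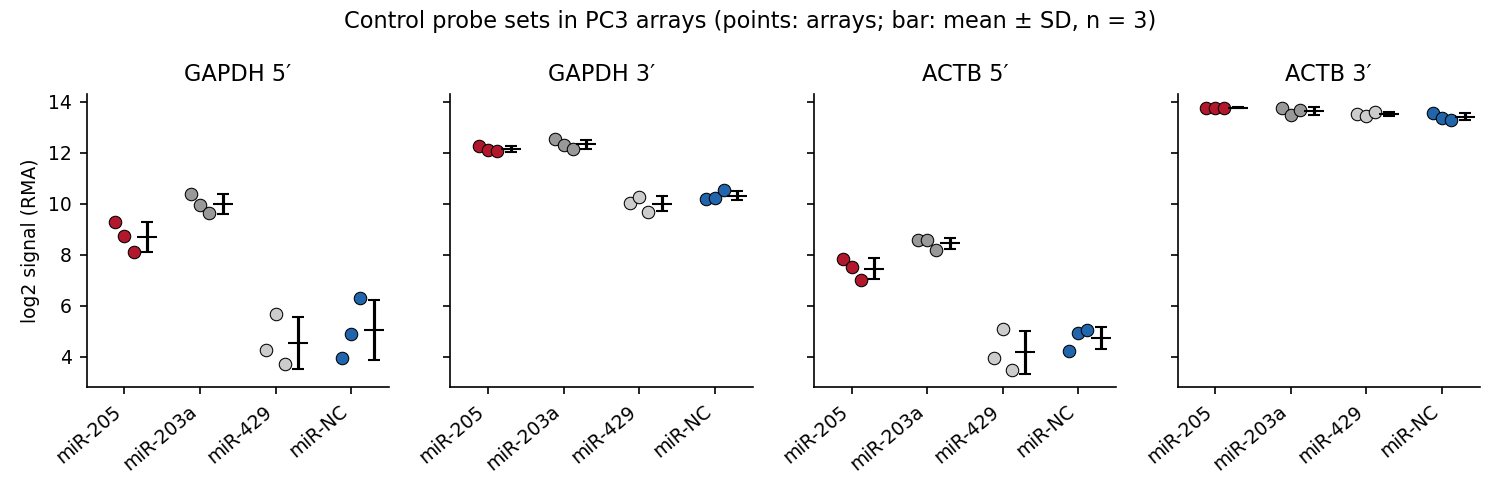
Control probe sets of GAPDH and ACTB at the 5′ and 3′ ends of the transcript on the 12 transfected PC3 arrays (y axis: log2 signal after RMA, points: arrays, bar: mean ± SD, n = 3). The 5′ probe sets of the miR-205 and miR-203a arrays lie above those of the miR-429 and miR-NC arrays, while the ACTB 3′ probe sets lie close together in the miR-205, miR-203a and miR-NC groups.

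Because the control probe sets set miR-205 apart from miR-NC, the results below are given against miR-NC and, for the genes and lists the text turns on, also against miR-203a, whose 5′ control probe sets differ less from those of miR-205 and in the opposite direction. The part of the control probe sets in the results was not tested. Both comparisons use the same miR-205 arrays. miR-203a is itself an active miRNA and not a neutral control, so a difference from it can lie with either miRNA. It is called a control below only as a group to compare with. Against miR-NC, 8240 genes were called (54.8%), with 4726 higher (31.4%) and 3514 lower (23.4%). Of the called genes, 2569 (17.1% of those tested) differed by at least 2-fold. Against miR-203a, 4814 genes were called (32.0%), with 2485 higher (16.5%) and 2329 lower (15.5%), and 744 (4.95%) differed by at least 2-fold. The median change over all tested genes was 0.06 against miR-NC and -0.03 against miR-203a. Since 54.8% of all genes were called against miR-NC, counts of called genes in a list are read beside these shares. A gene could also pass the level filter through the miR-205 arrays alone, and such a gene can only be higher. The list counts do not separate such genes. Of the 4629 called genes with several probe sets, 58.0% had every probe set on the same side as the gene.

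The genes with the largest rise against miR-NC were all known to respond to interferon or to encode interferon. In order of size they were OASL, CXCL10, IFNL2, RSAD2, MX1, MX2, TRIM22, CXCL11, ISG15 and TNFSF10, and their differences ran from 6.32 to 4.84 on the log2 scale. All 10 were also called higher against miR-203a, by 2.39 (ISG15) to 6.57 (CXCL10). In bulk samples such as these, more cells of a state and more RNA per cell cannot be told apart.

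Transcripts of several sensors of double-stranded RNA were higher with miR-205. The miR-203a, miR-429 and miR-NC groups also received a precursor at 33 nM for 48 h. With 1 time point it cannot be told whether the sensors rose before or after the interferon and antiviral genes. The cause of their rise was not tested. TLR3, the sensor of double-stranded RNA in endosomes, was at 10.00, 10.29 and 10.30 on the miR-205 arrays, against 4.88, 5.13 and 4.99 on the miR-203a arrays and 6.93, 6.80 and 6.84 on the miR-NC arrays. Every miR-205 array was above every other transfected PC3 array, by 3.34 ± 0.22 (SE, adjusted p = 4e-13) against miR-NC and 5.20 ± 0.22 against miR-203a. IFIH1, which encodes MDA5, the cytoplasmic sensor of long double-stranded RNA, lay between 11.82 and 12.16 on the miR-205 arrays, against 8.69, 8.99 and 8.62 on the miR-NC arrays. RIGI, the cytoplasmic sensor of short RNA with a 5′ triphosphate, was at 12.56, 12.61 and 12.47 on the miR-205 arrays, against 10.05, 10.21 and 10.12 on the miR-NC arrays. The groups did not overlap for either gene, and both were called higher against miR-203a too, by 3.09 and 2.36.

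EIF2AK2, the kinase PKR that halts translation on double-stranded RNA, rose by 1.84 ± 0.14 against miR-NC and by 1.39 against miR-203a. TRIM25, the ubiquitin ligase that helps to activate RIG-I, rose by 1.82 and 1.34. ADAR, which edits double-stranded RNA, rose by 1.29 and 0.53, and the kinase TBK1 by 0.30 and 0.64. IRF3, TICAM1 and IKBKE, a transcription factor, an adaptor and a kinase downstream of the sensors, were called higher against miR-NC (1.43, 1.38 and 1.26) but not against miR-203a (-0.12, 0.30 and 0.30). MAVS, the mitochondrial adaptor of RIG-I and MDA5, rose by 0.49 against miR-NC and fell by 0.54 against miR-203a. CGAS and STING1, which sense DNA and relay the signal, were not called against miR-NC (-0.02 and 0.03), though STING1 was higher by 0.45 against miR-203a. With the arrays of PC3 alone in the fit another probe set stood for CGAS, and it was called higher by 0.68 against miR-NC. Also not called against miR-NC were DHX58 (0.38) and ZBP1 (0.03), both of which had group means near background. Of the 15 sensors and adaptors, 11 were called higher and none lower against miR-NC, beside 31.4% and 23.4% of all genes. Against miR-203a 8 were higher and 1 lower, beside 16.5% and 15.5%.

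Transcripts of interferons themselves were higher on the miR-205 arrays. IFNB1, which encodes interferon beta, was at 7.28, 7.38 and 8.12 on the miR-205 arrays, against 3.24, 3.52 and 2.76 on the miR-203a arrays and 3.33, 2.59 and 2.69 on the miR-NC arrays. All 3 miR-205 arrays were above background and every miR-203a and miR-NC array below it, a difference of 4.73 ± 0.26 (adjusted p = 1.31e-14) against miR-NC that is only a bound. IFNL2, a type III interferon that acts mostly on epithelial cells, was at 8.39, 7.91 and 8.64 on the miR-205 arrays, against 2.38, 2.41 and 2.97 on the miR-203a arrays and 3.10, 2.30 and 1.76 on the miR-NC arrays. Its difference was 5.93 ± 0.30 (adjusted p = 2.47e-15) against miR-NC and 5.73 ± 0.30 against miR-203a, again without overlap and again only a bound. IFNB1 and IFNL2 both lay near background in the other PC3 groups. A gene that passes the level filter only through the miR-205 arrays can only be higher, so its p-value is no support for the direction. Since the type III interferon genes are near-identical copies, its probe set may also pick up their transcripts.

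IFNL1, another type III interferon, rose by 1.16 ± 0.17 to levels of 5.21, 5.17 and 5.52, against 4.60, 3.85 and 3.98 on the miR-NC arrays, and it was called higher by 1.07 against miR-203a. IFNE, an interferon of epithelia that is not induced by RNA sensors, went the other way, with 4.98, 5.43 and 5.32 on the miR-205 arrays against 6.90, 6.70 and 7.26 on the miR-NC arrays. It fell by 1.71 against miR-NC, while against miR-203a it was called higher by 0.51. Of the receptor chains, IFNLR1 rose by 0.67 against miR-NC and 0.58 against miR-203a, and IL10RB, its partner, by 1.49 against miR-NC with -0.03 (not called) against miR-203a. IFNAR1, a chain of the receptor for interferon beta, fell by 0.58 against miR-NC and was not called against miR-203a (-0.25), and IFNAR2 was called in neither (-0.21 and 0.03).

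**Figure D2:**
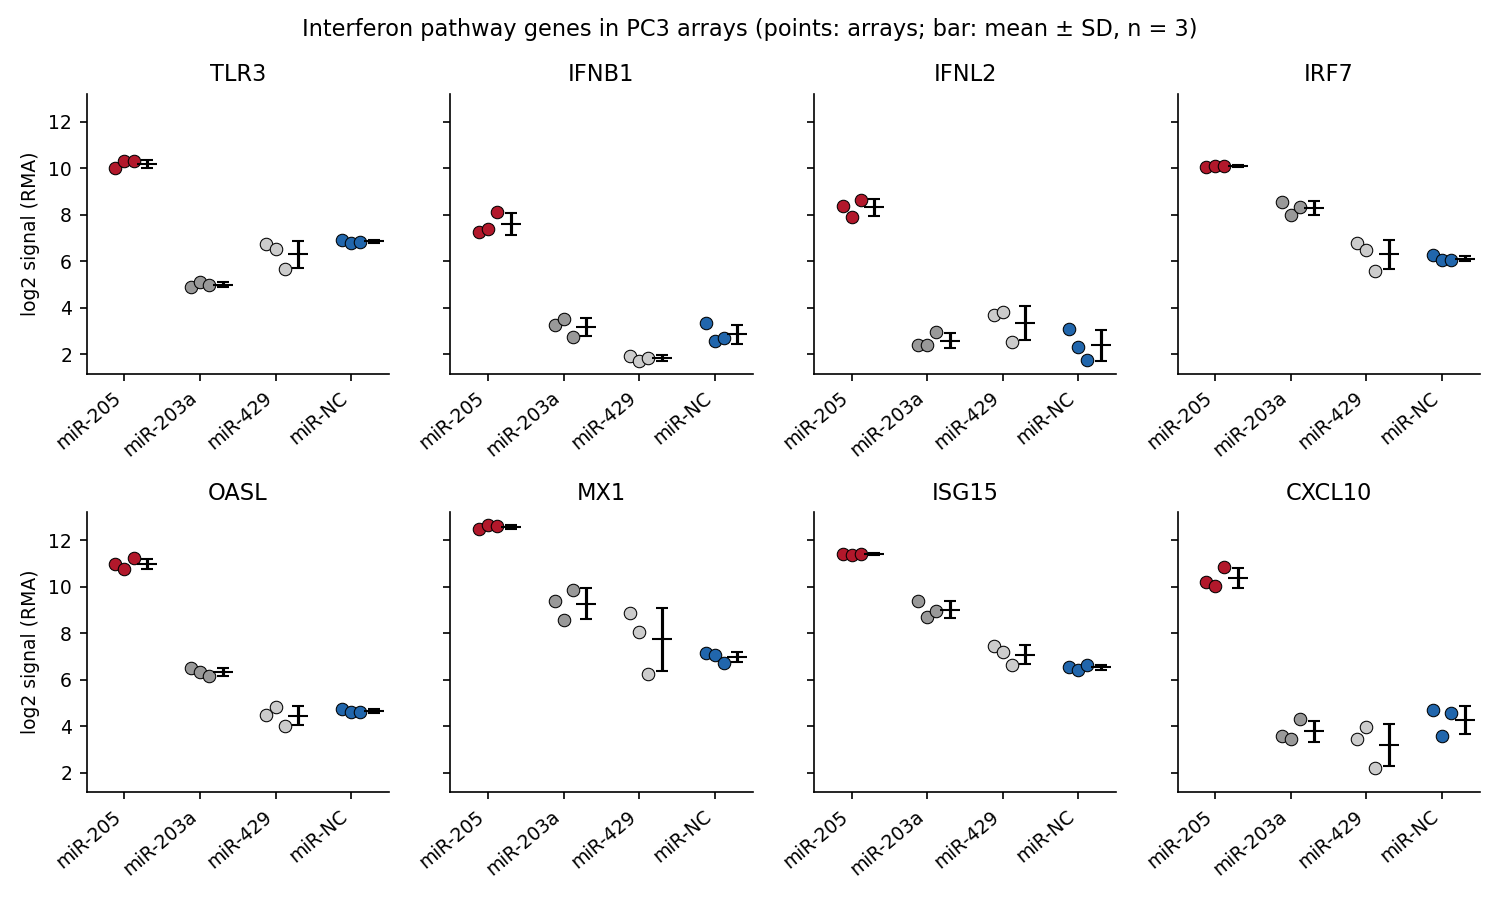
Levels of 8 genes of the interferon pathway on the 12 transfected PC3 arrays (y axis: log2 signal after RMA, points: arrays, bar: mean ± SD, n = 3). In each panel the 3 miR-205 arrays lie above all 9 other arrays, and IFNB1, IFNL2 and CXCL10 lie near background in the other 3 groups.

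Components of interferon signalling were unevenly raised. IRF7, the transcription factor that amplifies interferon production, was at 10.04, 10.10 and 10.12 on the miR-205 arrays, against 8.54, 7.97 and 8.34 on the miR-203a arrays and 6.26, 6.04 and 6.06 on the miR-NC arrays. USP18, a feedback inhibitor of the interferon receptor, was at 10.03, 10.10 and 10.48 on the miR-205 arrays, against 6.51, 6.56 and 7.06 on the miR-203a arrays and 6.76, 6.36 and 6.45 on the miR-NC arrays. Both were above every other transfected PC3 array, by 3.96 ± 0.22 and 3.68 ± 0.41 against miR-NC and by 1.80 and 3.49 against miR-203a. IRF9, the DNA-binding part of the interferon-activated complex, rose by 1.89 and 1.13, and IRF1, a related activator, by 1.65 and 1.31.

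The kinase JAK2 showed how the group chosen for comparison enters. It was at 8.03, 8.09 and 8.05 on the miR-205 arrays, against 6.11, 6.12 and 6.26 on the miR-203a arrays and 8.42, 8.42 and 7.95 on the miR-NC arrays. Thus it was not called against miR-NC (-0.21) and was higher by 1.89 against miR-203a. TYK2 rose by 1.45 against miR-NC and had -0.13 (not called) against miR-203a. The feedback inhibitors SOCS3 and SOCS1 had 0.48 and 0.44 against miR-NC, of which only that of SOCS3 was called, and were both called higher against miR-203a (0.89 and 0.54). Of 12 tested genes of the 14 listed, 7 rose and 2 fell against miR-NC, beside 31.4% and 23.4% of all genes. Against miR-203a 8 rose and none fell, beside 16.5% and 15.5%. 1 of the falls against miR-NC was that of STAT3, at background in this line, and the other was PIAS1, an inhibitor of interferon signalling, which fell by 0.47 and was not called against miR-203a (0.10).

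The antiviral effectors, the genes that interferon turns on, were higher with miR-205 in nearly every case. 53 of the 54 tested members (56 were listed) were called higher against miR-NC and none lower, and the arrays of the 2 groups did not overlap for 53 of them, where 32.7% of all genes lay wholly higher. The median change was 2.82, against 0.06 over all genes. Against miR-203a 53 of the 54 were called higher (16.5% of all genes), with a median of 2.65 against -0.03 over all genes. All 92 of their probe sets past the level filter were higher than in miR-NC, though a set that passed only through the miR-205 arrays could not be lower. The mean level over the 54 genes was 11.08, 11.04 and 11.16 on the miR-205 arrays, against 8.35, 8.13 and 8.59 on the miR-203a arrays, 8.53, 8.32 and 7.78 on the miR-429 arrays and 8.01, 8.01 and 7.90 on the miR-NC arrays. The list was chosen with earlier results of these data known, so its direction is a description.

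OASL, a partner of RIG-I, was at 10.96, 10.78 and 11.22 on the miR-205 arrays, against 6.50, 6.35 and 6.18 on the miR-203a arrays and 4.76, 4.61 and 4.61 on the miR-NC arrays. It was 6.32 ± 0.26 higher than in miR-NC (adjusted p = 2.32e-17), a bound because the miR-NC mean lay near background. RSAD2, which encodes viperin, an enzyme that makes a chain terminator for viral RNA synthesis, was at 13.25, 13.32 and 13.24 on the miR-205 arrays, against 8.71, 8.66 and 9.16 on the miR-203a arrays and 7.33, 7.87 and 7.03 on the miR-NC arrays. MX1, a GTPase that traps viral ribonucleoproteins, was at 12.46, 12.64 and 12.60 on the miR-205 arrays, against 9.40, 8.55 and 9.88 on the miR-203a arrays and 7.15, 7.09 and 6.73 on the miR-NC arrays. For all 3 genes the miR-205 arrays were the highest of the transfected PC3 arrays and the miR-203a arrays lay between them and the miR-NC arrays.

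ISG15, a ubiquitin-like protein attached to other proteins in infected cells, followed the same order, with 11.42, 11.37 and 11.42 on the miR-205 arrays, against 9.39, 8.68 and 8.96 on the miR-203a arrays and 6.56, 6.43 and 6.65 on the miR-NC arrays. It rose by 4.86 ± 0.17 against miR-NC (adjusted p = 1.35e-18) and by 2.39 ± 0.17 against miR-203a. TRIM22, a ubiquitin ligase with antiviral activity, was at 10.68, 10.62 and 10.77 on the miR-205 arrays, against 4.41, 4.38 and 5.84 on the miR-203a arrays and 6.04, 5.25 and 5.99 on the miR-NC arrays. MX2, a relative of MX1, rose by 5.20 ± 0.31 and 4.73 ± 0.31, and GBP4, a guanylate-binding protein, by 4.60 ± 0.17 and 4.47 ± 0.17. APOBEC3G, a cytidine deaminase, was the exception in the list, with 8.66, 8.79 and 9.03 on the miR-205 arrays, against 8.97, 8.65 and 8.17 on the miR-NC arrays, overlapping groups and a difference of 0.23 that was not called.

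The promoters of effector genes with a large rise are shown because interferon acts through a short DNA element, the interferon-stimulated response element. It was searched as GAAA, any 2 bases and GAAA again, on both strands, in windows of 300 bases that span the start of each gene (RefSeq, GRCh38.p14). The motif was present in 31 of the 44 effector genes with a promoter sequence (70.5%), against 2.86% of the 11991 promoters of tested genes and 3.65% of all 27303 promoters in the table. It was found in 8 of 16 promoters of the antigen presentation list and 4 of 15 of the chemokine list, as well as in 3 of 10 of the sensors and adaptors, 2 of 9 of the ligands and receptors and 1 of 9 of the signalling list. Among all genes called higher 3.90% held it, against 2.47% of those called lower. The genes called higher include nearly all effectors, so these shares are not independent of the list. The effectors were listed as known interferon genes, so a high share of the motif among them follows from that choice and is no result of these arrays. The effector genes with the 3 largest rises among those that held the motif are printed 5′ to 3′ along the gene's strand, with each match in capitals: MX1 at chr21:41420308-41420607 on the plus strand, ISG15 at chr1:1013247-1013546 on the plus strand, with 2 overlapping matches, and GBP4 at chr1:89198893-89199192 on the minus strand, where the match lies on the opposite strand.
MX1: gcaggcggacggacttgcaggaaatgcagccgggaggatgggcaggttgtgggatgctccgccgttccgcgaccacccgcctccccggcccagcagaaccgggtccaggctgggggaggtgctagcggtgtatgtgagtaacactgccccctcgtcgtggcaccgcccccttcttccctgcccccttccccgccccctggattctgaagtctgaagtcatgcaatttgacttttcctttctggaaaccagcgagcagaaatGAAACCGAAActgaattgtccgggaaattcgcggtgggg
ISG15: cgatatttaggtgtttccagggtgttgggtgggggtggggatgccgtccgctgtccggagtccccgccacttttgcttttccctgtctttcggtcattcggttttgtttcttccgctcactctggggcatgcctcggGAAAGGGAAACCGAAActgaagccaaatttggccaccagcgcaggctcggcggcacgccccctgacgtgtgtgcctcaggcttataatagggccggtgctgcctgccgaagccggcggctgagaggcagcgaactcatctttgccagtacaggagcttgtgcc
GBP4: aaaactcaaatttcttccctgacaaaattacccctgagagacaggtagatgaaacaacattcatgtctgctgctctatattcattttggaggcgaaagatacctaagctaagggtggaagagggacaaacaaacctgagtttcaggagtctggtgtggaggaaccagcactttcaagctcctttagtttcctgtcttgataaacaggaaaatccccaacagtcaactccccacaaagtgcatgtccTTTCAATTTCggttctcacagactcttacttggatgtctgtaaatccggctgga
A match describes the letters and does not show that a factor was bound there. The effectors OASL, RSAD2, MX2 and TRIM22, which rose more than ISG15 and GBP4, had no match or no promoter sequence to search. Another interferon element, the gamma-activated site, searched as TTCNNNGAA on both strands, was present in 11 of the 44 effector promoters (25.0%) against 6.32% of the promoters of tested genes. It was in 3 of 9 of the ligands and receptors, 2 of 9 of the signalling list, 2 of 15 of the chemokine list, 1 of 10 of the sensors and adaptors and 0 of 16 of the antigen presentation list. The 2 motifs were searched separately, and their matches may overlap.

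The effector genes responded to miR-205 differently in PC3 and in the ovarian lines. The median change of the same 54 genes was 2.82 in PC3, against -0.27 in HEY and 0.07 in SKOV3. Tested as a difference between lines, the response was higher in PC3 than in HEY for 53 of the 54 (30.1% of all genes, with 52.5% called in either direction) and higher than in SKOV3 for 52 (25.2% of all genes, with 49.4% called in either direction), and lower for none in either test. In HEY cells 12 of the 54 were called higher and 22 lower, beside 35.4% and 35.0% of all genes (70.4% together), and in SKOV3 cells 10 higher and 5 lower, beside 20.8% and 11.5% (32.3% together). MX1 changed by 5.58 ± 0.39 in PC3, -1.38 ± 0.39 in HEY and -0.57 ± 0.39 in SKOV3, the last not called, so that the response differed by 6.96 ± 0.55 from HEY and 6.15 ± 0.55 from SKOV3. CXCL10 changed by 6.07 in PC3, -0.16 in HEY and -0.02 in SKOV3, TLR3 by 3.34, -1.91 and -0.27, and IFNB1 by 4.73, 0.41 and -0.02. Of these 6 values in the ovarian lines only the fall of TLR3 in HEY was called. OASL, the gene with the largest rise in PC3, was called higher by 1.39 in HEY and was not called in SKOV3 (0.04). Over the 54 effectors the changes ran from -2.93 to 2.72 in HEY and from -1.0 to 2.11 in SKOV3. In HEY the GAPDH 3′ and 5′ control probe sets also differed in distance between the groups, averaging 1.47 on the miR-205 arrays and 3.91 on the miR-NC arrays, while in SKOV3 they averaged 0.03 and 0.07.

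**Figure D3:**
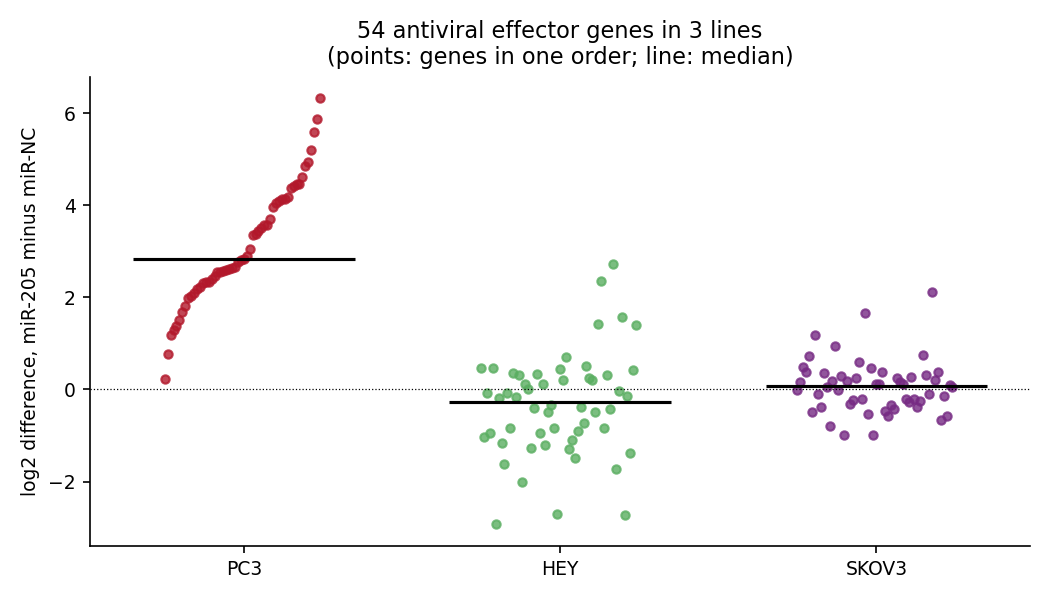
Change of the 54 tested antiviral effector genes with miR-205 in PC3, HEY and SKOV3 cells (y axis: log2 difference, miR-205 minus miR-NC, points: genes, in the same left-to-right order in each line, horizontal line: median). In PC3 every point is above 0 with a median of 2.82, whereas the points of HEY and SKOV3 spread around medians of -0.27 and 0.07.

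Genes that present peptides to T cells were also higher. 18 of 19 tested members were called higher against miR-NC (31.4% of all genes) and none lower, with a median of 1.87. Against miR-203a 14 were called higher (16.5% of all genes), with a median of 0.96. HLA-B, a class I heavy chain, was at 10.90, 11.04 and 11.47 on the miR-205 arrays, against 9.55, 9.45 and 9.46 on the miR-203a arrays and 7.94, 7.90 and 7.97 on the miR-NC arrays. PSMB9, a subunit of the immunoproteasome, was at 8.96, 8.91 and 9.23 on the miR-205 arrays, against 5.95, 5.81 and 5.93 on the miR-203a arrays and 6.33, 5.64 and 5.68 on the miR-NC arrays. Neither gene overlapped between miR-205 and the other groups, and both passed the test against each control. HLA-C (2.92 and 1.59) and the immunoproteasome subunit PSMB8 (3.15 and 1.70) did so too. Since class I genes are closely alike, their probe sets may share transcripts. TAPBP, a chaperone of class I loading, was raised by 3.11 against miR-NC and had 0.07 (not called) against miR-203a, and 1 of its 3 probe sets was lower than in miR-NC.

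Chemokines and cytokines rose in 15 of 21 tested genes and fell in 1 against miR-NC, beside 31.4% and 23.4% of all genes. Against miR-203a 13 were higher and none lower, beside 16.5% and 15.5%. CXCL10, a chemokine that draws T cells, was at 10.21, 10.02 and 10.85 on the miR-205 arrays, against 3.60, 3.46 and 4.31 on the miR-203a arrays and 4.70, 3.59 and 4.58 on the miR-NC arrays. CXCL11 and CXCL9, which share its receptor, rose by 4.87 ± 0.27 and 2.25 ± 0.24 against miR-NC and by 4.75 and 2.66 against miR-203a. All 3 miR-NC means lay near background, so these rises against miR-NC are only bounds. TNFSF10, which encodes the death ligand TRAIL, was at 8.86, 8.92 and 9.02 on the miR-205 arrays, against 5.10, 4.84 and 4.91 on the miR-203a arrays and 4.65, 3.77 and 3.84 on the miR-NC arrays. CCL20, a chemokine under NF-kB control, rose by 2.07 and 3.32. The fall was that of TNFSF13B, a B cell survival factor, by 0.76 against miR-NC, with 0.32 (not called) against miR-203a.

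Targets of NF-kB, the transcription factor of inflammation, gave different counts against the 2 controls. 9 of 13 were called higher and 1 lower against miR-NC, beside 31.4% and 23.4% of all genes. Against miR-203a 5 were higher and none lower, beside 16.5% and 15.5%. The 1 that was lower was NFKBIZ, a nuclear regulator of NF-kB, which fell by 0.36 against miR-NC and was higher by 0.73 against miR-203a. TNFAIP3, which encodes the feedback inhibitor A20, rose by 1.27 ± 0.13 against miR-NC and 1.48 ± 0.13 against miR-203a, and the adhesion receptor ICAM1 by 1.73 and 0.72. TNFAIP2, NFKBIA and TNIP1 were called higher against miR-NC (2.76, 1.86 and 1.46) and not against miR-203a (0.05, 0.32 and -0.31). TNFAIP2 and TNIP1 each had a further probe set that was lower than in miR-NC.

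Genes of cell death included several that interferon is known to raise. CASP1, the inflammatory caspase, was at 8.24, 8.61 and 8.69 on the miR-205 arrays, against 4.94, 4.78 and 4.72 on the miR-203a arrays and 5.72, 5.17 and 5.71 on the miR-NC arrays. It did not overlap with any other transfected PC3 array. GSDMD, the pore protein that CASP1 cleaves, rose by 1.85 against miR-NC and 0.74 against miR-203a, and CASP4 by 1.55 and 1.17. BAX, a pore protein of mitochondria, rose by 1.81 against miR-NC and fell by 0.53 against miR-203a. BCL2, which protects from death, fell by 0.90 against miR-NC and by 0.69 against miR-203a. BCL2L11, the death activator BIM, fell by 0.48 against miR-NC and was higher by 1.32 against miR-203a. In all 11 of 19 were called higher and 3 lower against miR-NC, beside 31.4% and 23.4% of all genes. Against miR-203a 10 were higher and 2 lower, beside 16.5% and 15.5%.

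The published targets of miR-205, the genes through which the miRNA is known to act, were tested next. Of 24 tested targets 9 were called lower (23.4% of all genes) and 5 higher (31.4%) against miR-NC, with a median of -0.14. Against miR-203a 8 were called lower (15.5% of all genes) and 6 higher (16.5%), with a median of -0.06.

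HMGB3, a chromatin protein and a well-known target, was at 9.34, 9.42 and 9.29 on the miR-205 arrays, against 11.14, 10.94 and 11.10 on the miR-203a arrays and 10.17, 10.91 and 10.98 on the miR-NC arrays. It fell by 1.34 against miR-NC (adjusted p = 1.16e-07) and by 1.71 against miR-203a, without overlap in either, and both of its probe sets were lower. LYN, a Src family kinase, was at 7.29, 7.25 and 7.53 on the miR-205 arrays, against 8.21, 8.01 and 8.17 on the miR-203a arrays and 8.30, 8.10 and 7.89 on the miR-NC arrays, and 1 of its 3 probe sets was higher than in miR-NC. ERBB3, a receptor of the EGF family, fell by 0.72 against miR-NC and by 0.90 against miR-203a, E2F1, a driver of S phase, by 0.50 (a call lost without miR-NC replicate 3, at -0.22) and 1.28, and MED1, a subunit of Mediator, by 1.03 and 0.51.

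ZEB1 and ZEB2, the repressors of epithelial genes, were lower than with miR-NC on both the miR-205 and the miR-203a arrays. ZEB1 was at 10.07, 10.04 and 9.84 on the miR-205 arrays, against 9.57, 9.74 and 9.72 on the miR-203a arrays and between 10.75 and 11.13 on the miR-NC arrays. It fell by 0.98 against miR-NC (adjusted p = 1.66e-09) and was higher by 0.31 against miR-203a, and no arrays overlapped in either comparison. ZEB2 was at 7.87, 7.80 and 7.75 on the miR-205 arrays, against 6.69, 6.75 and 7.27 on the miR-203a arrays and 8.06, 8.44 and 8.44 on the miR-NC arrays. The miR-205 arrays were again between the 2 other groups, lower than miR-NC by 0.50 and higher than miR-203a by 0.91.

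NOTCH2, a receptor of cell fate, and SMAD4, a mediator of TGF-beta, fell by 0.62 and 0.54 against miR-NC and were not called against miR-203a (-0.10 and -0.13). PRKCE, a protein kinase C that is a published target in prostate cells, was called in neither comparison in PC3 (-0.07 and -0.24), whereas it fell by 3.82 in HEY, and the difference in response between PC3 and HEY was 3.75 ± 0.19 (adjusted p = 2.46e-15). The kinase SRC and the integrin ITGA5, both published targets, were higher against both controls, SRC by 1.58 and 1.28 and ITGA5 by 1.15 and 0.76. SRC was at 6.39, 6.44 and 6.27 on the miR-205 arrays, against 5.29, 4.62 and 5.36 on the miR-203a arrays and 4.66, 4.68 and 5.04 on the miR-NC arrays, and its 5 probe sets did not move one way. BCL2L2, DDX5 and INPPL1 were higher against miR-NC (0.74, 0.59 and 0.54). Against miR-203a, BCL2L2 and DDX5 were not called (-0.03 and -0.01) and INPPL1 fell by 0.57.

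**Figure D4:**
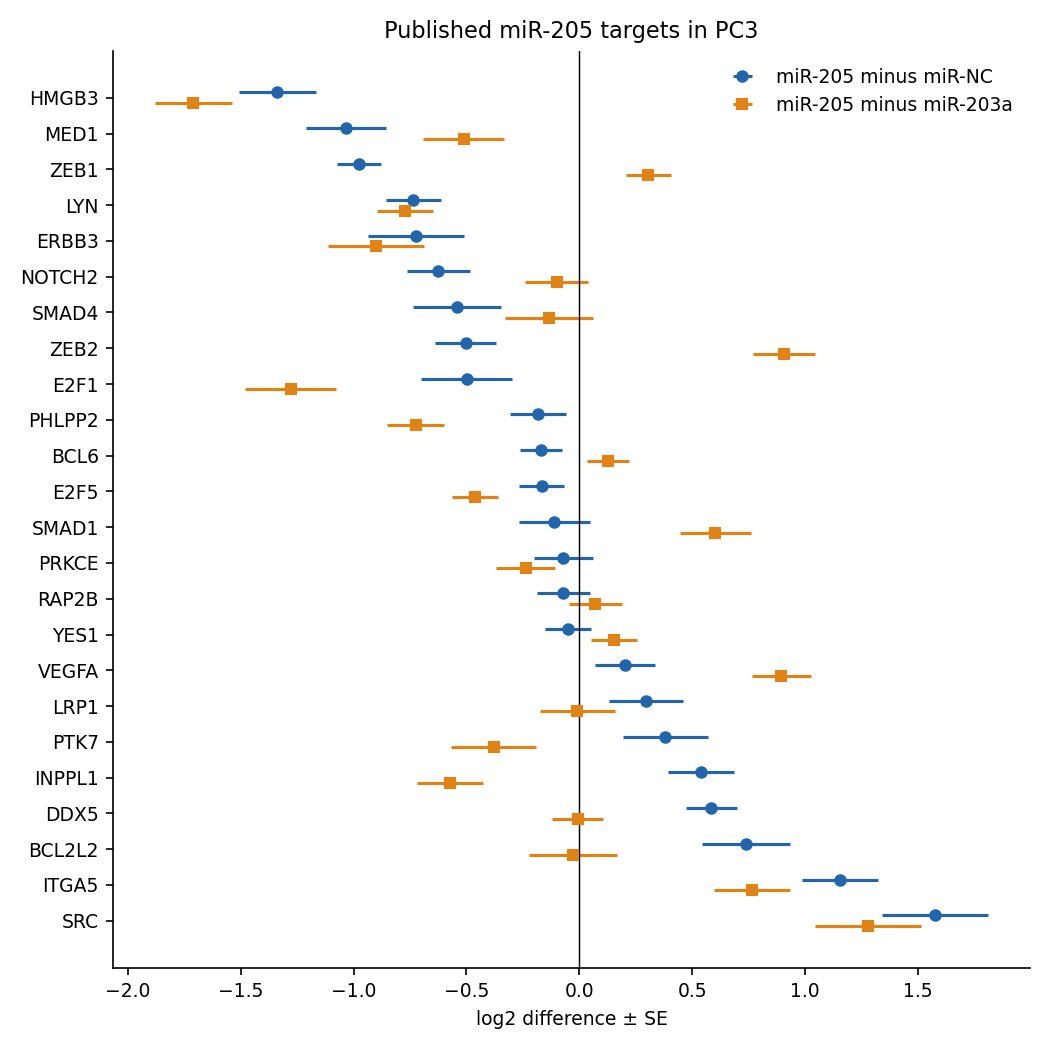
Change of 24 published miR-205 targets in PC3 cells (x axis: log2 difference ± SE from the fit, circles: miR-205 minus miR-NC, squares: miR-205 minus miR-203a). HMGB3, LYN, ERBB3, E2F1 and MED1 lie below 0 in both, ZEB1 and ZEB2 on opposite sides of 0, and SRC and ITGA5 above 0 in both.

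2 cytokine genes have been reported to rise with miR-205 in prostate cancer cells. IL24, a cytokine of the IL-10 family, was at 10.40, 10.25 and 10.28 on the miR-205 arrays, against 7.43, 7.50 and 7.03 on the miR-203a arrays and 9.98, 9.68 and 9.66 on the miR-NC arrays. All miR-205 arrays were above the miR-NC arrays, but the difference of 0.54 ± 0.25 was not called (adjusted p = 0.0651), and that of 2.99 ± 0.25 against miR-203a was. IL32, a cytokine of inflammation, was at 6.48, 6.40 and 7.28 on the miR-205 arrays, against 6.66, 6.72 and 6.13 on the miR-203a arrays and 3.23, 3.21 and 3.67 on the miR-NC arrays. It was called higher by 3.35 against miR-NC, a bound since miR-NC lay near background, and not called against miR-203a (0.22).

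Transcription factors of the epithelial-to-mesenchymal transition (EMT) gave different counts against the 2 controls. 6 of 13 were called lower and 2 higher against miR-NC, beside 23.4% and 31.4% of all genes, with a median of -0.26. Against miR-203a 1 was called lower and 6 higher, beside 15.5% and 16.5%. The miR-203a arrays themselves had 7 of the 13 lower and 1 higher against miR-NC, with a median of -0.40. SNAI2 and TWIST1, which repress epithelial genes, fell by 0.32 and 0.26 against miR-NC, while against miR-203a SNAI2 was called higher (0.76) and TWIST1 was not called (0.14). OVOL2 and ELF3, which promote the epithelial state, fell by 1.10 and 0.41 against miR-NC. ELF3 was also lower against miR-203a, by 0.55, and OVOL2 was not called there (-0.42). TCF4 and KLF4 rose by 0.32 and 0.37 against miR-NC and by 1.62 and 0.64 against miR-203a. SNAI1 was near background in both groups and not called (-0.00). The calls of SNAI2, TCF4, KLF4, ELF3 and TWIST1 against miR-NC were each lost when single arrays were left out (SNAI2 had -0.31 and TCF4 0.30 without miR-NC replicate 1), and the count called higher then fell to 0 or 1.

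Keratins, the intermediate filaments of epithelia, were higher than in miR-NC but not than in miR-203a. KRT8 was at 8.95, 9.06 and 8.36 on the miR-205 arrays, against 9.29, 9.07 and 8.83 on the miR-203a arrays and 5.76, 5.74 and 5.91 on the miR-NC arrays. KRT18, its partner, was at 9.78, 10.00 and 9.86 on the miR-205 arrays, against 10.46, 10.02 and 9.81 on the miR-203a arrays and 6.80, 7.17 and 7.62 on the miR-NC arrays. For both the miR-205 arrays lay wholly above the miR-NC arrays, by 2.99 and 2.68, and overlapped the miR-203a arrays, with -0.28 and -0.22, which were not called. KRT7 rose by 2.80 against miR-NC and fell by 0.70 against miR-203a. Of 9 tested keratins of 17 listed, 7 were higher and 1 (KRT4) lower against miR-NC, beside 31.4% and 23.4% of all genes. Against miR-203a none was higher and 3 were lower, beside 16.5% and 15.5%. The control probe sets at the 5′ end of GAPDH and ACTB ordered the 3 groups in the same way, and their part in the keratin values was not tested.

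Other epithelial lists were also mostly higher against miR-NC. Genes of junctions and adhesion were called higher in 21 of 27 and lower in 1 against miR-NC, beside 31.4% and 23.4% of all genes. Against miR-203a 4 were higher and 2 lower, beside 16.5% and 15.5%. The medians were 0.76 and -0.01. SPINT1 and ST14, a protease inhibitor of epithelia and the protease it restrains, were higher by 2.68 and 2.41 against miR-NC and had -0.76 (called lower) and -0.22 (not called) against miR-203a. DSC2, a desmosomal cadherin, fell by 0.51 against miR-NC and was not called against miR-203a (-0.10). In the list of basement membrane and hemidesmosome genes, 8 of 12 were higher and 2 lower against miR-NC, and 6 higher and 2 lower against miR-203a, with medians of 0.61 and 0.11. LAMB3, a chain of the laminin under epithelia, was at 10.19, 10.19 and 10.34 on the miR-205 arrays, against 10.38, 10.22 and 10.21 on the miR-203a arrays and 8.39, 8.39 and 8.64 on the miR-NC arrays, so it was higher than miR-NC by 1.77 and overlapped miR-203a. ITGB4, the hemidesmosome integrin, rose by 2.0 against miR-NC and fell by 0.88 against miR-203a. LAMC1 and DST fell by 0.65 and 0.33 against miR-NC and were higher by 0.25 and 0.26 against miR-203a.

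Mesenchymal genes showed no common direction. Against miR-NC 7 of 22 were higher and 4 lower, beside 31.4% and 23.4% of all genes. Against miR-203a 5 were higher and 5 lower, beside 16.5% and 15.5% of all genes. CDH11, a mesenchymal cadherin, and SPARC, a matrix protein, fell against both controls, CDH11 by 1.09 and 0.96 and SPARC by 1.36 and 1.18. COL3A1, a fibrillar collagen, fell by 1.26 against miR-NC and had 0.49 (not called) against miR-203a. VIM, the mesenchymal intermediate filament, was higher by 0.85 against miR-NC and lower by 0.84 against miR-203a by its brightest probe set, and its other probe set fell by 1.59 against miR-NC. LOXL2, a collagen crosslinker, rose by 1.69 against miR-NC and had -0.01 (not called) against miR-203a.

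Proteases of the matrix were higher in 8 of 15 genes and lower in 1 against miR-NC, beside 31.4% and 23.4% of all genes. Against miR-203a 6 were higher and 2 lower, beside 16.5% and 15.5%. MMP13, a collagenase, was at 9.94, 10.14 and 10.29 on the miR-205 arrays, against 6.18, 6.09 and 6.70 on the miR-203a arrays and 7.71, 7.62 and 7.36 on the miR-NC arrays. MMP1, another collagenase, was at 10.08, 10.19 and 10.43 on the miR-205 arrays, against 8.12, 8.04 and 8.04 on the miR-203a arrays and 8.53, 8.12 and 8.18 on the miR-NC arrays. Both were above all other transfected PC3 arrays, by 2.57 ± 0.23 and 1.96 ± 0.22 against miR-NC and 3.80 and 2.17 against miR-203a. PLAUR, the urokinase receptor, rose by 1.45 ± 0.09 and 0.97. TIMP1, an inhibitor of these enzymes, rose by 2.48 against miR-NC and had -0.37 (not called) against miR-203a. MMP3 fell by 0.70 against miR-NC and was higher by 1.47 against miR-203a.

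Stress genes of the unfolded protein response and the integrated stress response, which cells use to slow translation and refold proteins, were higher in 22 of 25 and lower in 1 against miR-NC (median 1.04), and higher in 14 and lower in 4 against miR-203a (median 0.37). ATF3, a stress-induced transcription factor, was at 9.39, 9.51 and 9.87 on the miR-205 arrays, against 8.65, 8.56 and 8.41 on the miR-203a arrays and 7.07, 7.06 and 7.67 on the miR-NC arrays. CHAC1, which degrades glutathione, was at 7.52, 7.78 and 8.01 on the miR-205 arrays, against 6.38, 6.36 and 6.23 on the miR-203a arrays and 6.33, 5.85 and 4.99 on the miR-NC arrays. Both lay above every other transfected PC3 array and were called against both controls, as were DDIT4 (2.12 and 0.88) and SESN2 (2.12 and 1.28), inhibitors of mTOR. ATF4, which drives these genes, rose by 1.85 against miR-NC and had -0.03 (not called) against miR-203a. SEL1L, part of the pathway that removes misfolded proteins, fell by 0.51 and 0.43. EGR1, an immediate early transcription factor, rose by 2.27 ± 0.14 against miR-NC and 2.49 ± 0.14 against miR-203a. Of the 18 tested AP-1 and immediate early genes, 12 were higher and 1 lower against miR-NC, and 10 higher and 2 lower against miR-203a. Both this list and the stress list stand beside 31.4% and 23.4% of all genes against miR-NC. Against miR-203a these shares were 16.5% and 15.5%. The heat shock protein HSPB1 rose by 3.90 against miR-NC with -0.08 (not called) against miR-203a.

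Genes of the cell cycle were more often lower than higher. 16 of 29 were called lower and 7 higher against miR-NC, beside 23.4% and 31.4% of all genes. Against miR-203a 23 were lower and none higher, beside 15.5% and 16.5%. The medians were -0.45 and -0.91. On the miR-203a arrays themselves 16 were higher and 9 lower against miR-NC, with a median of 0.46. Part of the larger difference from miR-203a thus lay in the miR-203a arrays. KIF20A, a kinesin of cytokinesis, was at 7.58, 7.31 and 7.41 on the miR-205 arrays, against 9.05, 9.12 and 8.84 on the miR-203a arrays and 9.46, 9.15 and 9.39 on the miR-NC arrays. TOP2A, the topoisomerase of dividing cells, was at 10.04, 9.93 and 9.36 on the miR-205 arrays, against 10.82, 10.76 and 10.97 on the miR-203a arrays and 11.40, 11.61 and 11.36 on the miR-NC arrays. CENPF, a kinetochore protein, was at 9.22, 9.12 and 9.47 on the miR-205 arrays, against 10.40, 10.28 and 10.35 on the miR-203a arrays and 10.55, 10.55 and 10.82 on the miR-NC arrays. For these 3 genes the miR-205 arrays were the lowest of the transfected PC3 arrays. They fell by 1.90, 1.68 and 1.37 against miR-NC and by 1.57, 1.07 and 1.07 against miR-203a.

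CENPE, another kinetochore motor, fell by 1.41 and 0.71, and CDC25C, the phosphatase that starts mitosis, by 0.88 and 1.04. PLK1, a mitotic kinase, and MYBL2, a transcription factor of cycling cells, were higher against miR-NC (0.75 and 1.22) and lower against miR-203a, by 1.47 and 0.91. CCND1, which encodes cyclin D1, rose by 1.14 against miR-NC and had -0.38 (not called) against miR-203a. In the replication list, 8 of 29 were higher and 10 lower against miR-NC, beside 31.4% and 23.4% of all genes. Against miR-203a 1 was higher and 9 lower, beside 16.5% and 15.5% of all genes. MCM6, part of the helicase, fell by 0.93 and 0.51 and RFC3, part of the clamp loader, by 0.99 and 0.47, while the polymerase subunit POLD1 rose by 2.43 against miR-NC with -0.16 (not called) against miR-203a. CDKN1A, which encodes the cell cycle inhibitor p21, was at 8.93, 8.94 and 9.47 on the miR-205 arrays, against 8.47, 8.19 and 8.22 on the miR-203a arrays and 7.14, 7.25 and 7.37 on the miR-NC arrays. It rose by 1.86 ± 0.12 and 0.82 ± 0.12, above every other transfected PC3 array. TP53INP1, a p53-induced gene, fell by 1.40 and 0.59. Both belong to the list of the p53 response, in which 7 of 14 were called higher and 4 lower against miR-NC, beside 31.4% and 23.4% of all genes. Against miR-203a 3 were higher and 1 lower, beside 16.5% and 15.5%.

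Transcripts of housekeeping machines also changed against miR-NC. Ribosomal protein genes were called higher in 30 of 45 and lower in 2 against miR-NC (median 0.60), beside 31.4% and 23.4% of all genes. Against miR-203a none was higher and 25 were lower (median -0.28), beside 16.5% and 15.5%. RPL29 was at 10.90, 10.58 and 10.55 on the miR-205 arrays, against 12.03, 11.57 and 11.45 on the miR-203a arrays and 5.97, 7.12 and 7.46 on the miR-NC arrays. RPS9 was at 8.97, 8.74 and 9.32 on the miR-205 arrays, against 10.46, 9.87 and 9.57 on the miR-203a arrays and 4.70, 5.84 and 6.87 on the miR-NC arrays. The 3 groups stood in the order of their GAPDH 5′ control probe sets, and in RPS9 the miR-NC arrays spread over more than 2 log2 units. RPS7, in contrast, fell by 0.22 against miR-NC, and its other probe set was higher by 1.00. Against miR-203a it was not called (-0.08). The mitochondrial ribosomal proteins (28 of 38 higher and 1 lower against miR-NC, 2 higher and 15 lower against miR-203a) and the respiratory chain (21 of 29 higher and 1 lower, then 1 higher and 9 lower) also had more genes called higher than lower against miR-NC, and more called lower than higher against miR-203a. Ribosomal protein genes have many near-identical pseudogene copies, so their probe sets may pick up more than 1 transcript.

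**Figure D5:**
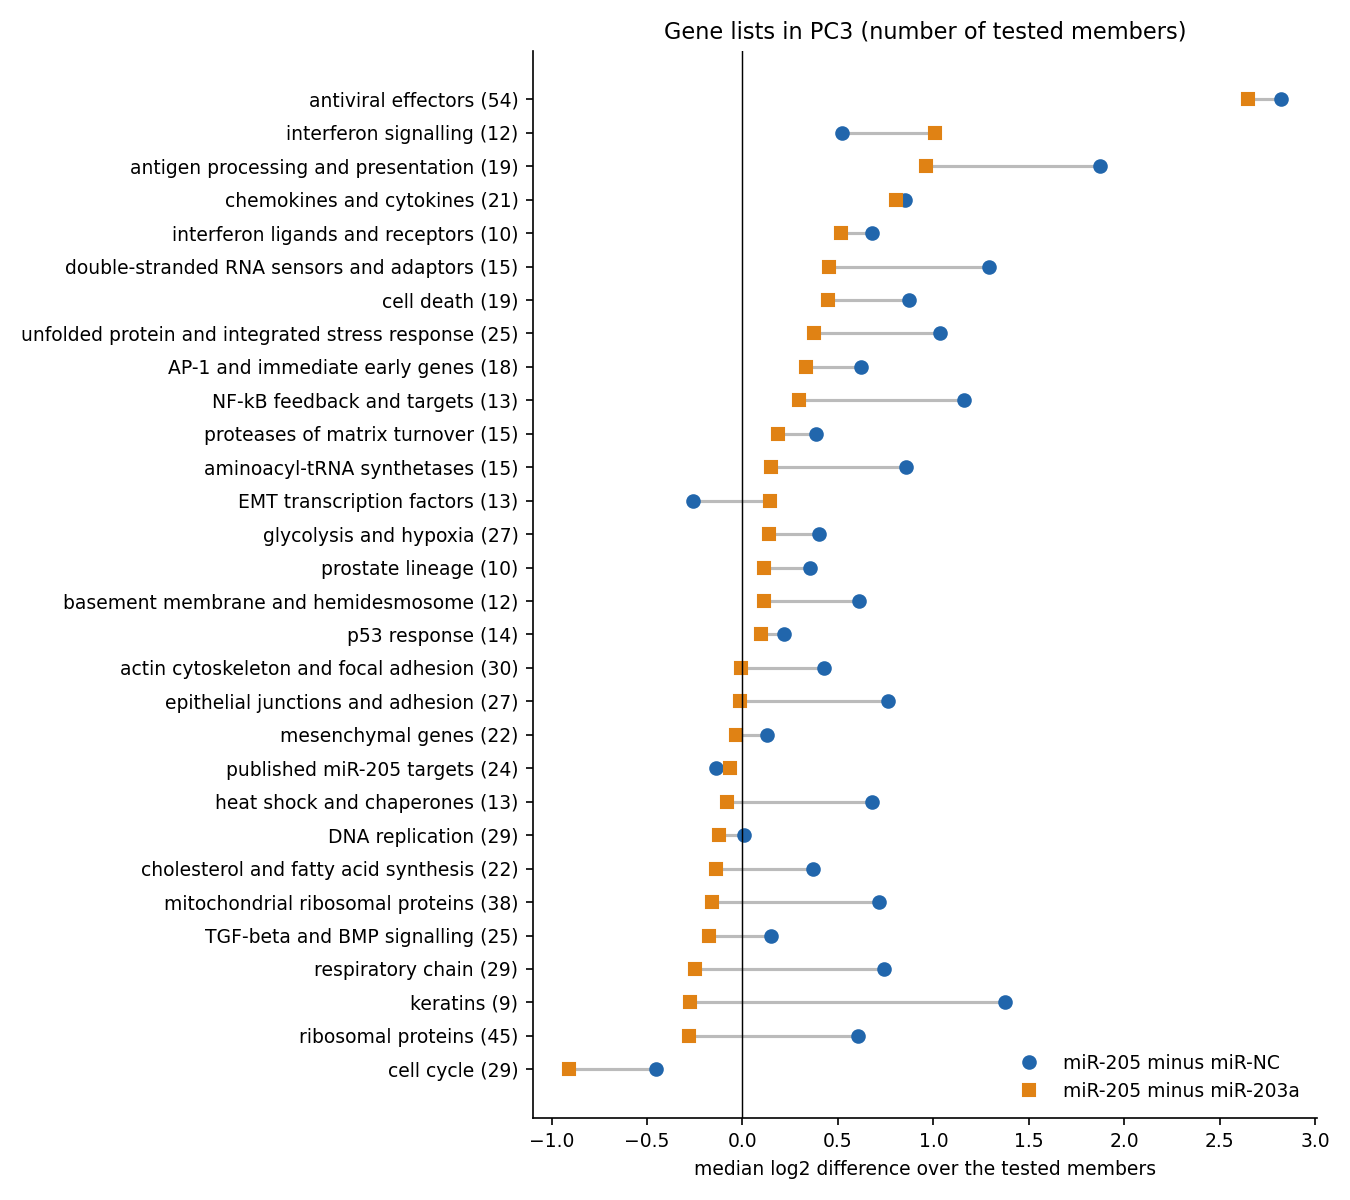
Median log2 difference over the tested members of 30 gene lists in PC3 cells (x axis: median log2 difference, circles: miR-205 minus miR-NC, squares: miR-205 minus miR-203a, in brackets: number of tested members). The antiviral effectors are highest in both comparisons (2.82 and 2.65) and the cell cycle list lowest in both (-0.45 and -0.91), while keratins (1.37 and -0.28) and ribosomal proteins (0.60 and -0.28) lie on opposite sides of 0.

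The largest falls against miR-NC were in SLC26A5-AS1, PCDHB16, SSTR5-AS1, PDGFRA, SYT15-AS1, DACH1, ZMAT1, TLL1, PCDHB4 and LHX9, from -3.77 to -2.63. PDGFRA, a receptor of platelet-derived growth factor, was at 6.14, 5.74 and 6.34 on the miR-205 arrays, against 6.00, 5.77 and 6.60 on the miR-203a arrays and 9.38, 9.12 and 9.04 on the miR-NC arrays. PCDHB16, a clustered protocadherin, was at 2.78, 3.80 and 3.29 on the miR-205 arrays, against 3.73, 2.84 and 2.69 on the miR-203a arrays and 6.52, 6.93 and 6.06 on the miR-NC arrays. The miR-205 and miR-203a arrays of both genes overlapped and both groups lay below every miR-NC array. Of the 10 genes, 8 were not called against miR-203a, where they had between -0.47 (ZMAT1) and 0.26 (SYT15-AS1), and SLC26A5-AS1 and SSTR5-AS1 fell by 0.89 and 1.35.

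Set directly against miR-203a, the highest called genes were CXCL10 (6.57), TRIM22 (5.81), IFNL2 (5.73), TLR3 (5.20) and GBP1 (5.16), the last a guanylate-binding protein induced by interferon. The lowest were TEX48, RFLNB, TMT1A, UCA1 and TCN1, which fell by 3.17, 2.46, 2.38, 2.08 and 2.04. RFLNB, a regulator of filamins, was at 7.27, 6.67 and 6.76 on the miR-205 arrays, against 9.45, 9.46 and 9.17 on the miR-203a arrays and 8.84, 8.87 and 8.68 on the miR-NC arrays. It lay below both other groups without overlap, as did TMT1A, which was at 6.28, 5.80 and 6.02 on the miR-205 arrays, against 8.40, 8.53 and 8.29 on the miR-203a arrays and 8.71, 8.34 and 8.45 on the miR-NC arrays. UCA1, a long noncoding RNA, was at 7.59, 8.08 and 8.39 on the miR-205 arrays, against 10.12, 10.04 and 10.13 on the miR-203a arrays and 8.27, 8.16 and 8.02 on the miR-NC arrays, so that it overlapped miR-NC and the miR-203a arrays stood higher.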

How the data were processed

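RNA of 45 samples was measured on Affymetrix HG-U133 Plus 2.0 arrays after a 3′-directed amplification, per the labels' protocols. The deposited values are log2 intensities per probe set after RMA, per the submitters' processing notes, which give no version. The 54675 probe sets were named through the platform's annotation, whose symbols were checked against RefSeq and needed no update, and probe sets with several genes or none were left out. A gene entered the tests with its brightest probe set where the highest group mean passed the median of all values, 4.88, which left 15029 genes. limma 3.58.1 (lmFit and eBayes, R 4.3.3) was fitted to 36 transfected arrays in 12 groups of 3, two-sided, with Benjamini-Hochberg adjustment over all genes and a threshold of 0.05. Differences between lines were interaction terms. No set test was run. The members and lists were chosen with earlier results of these data known, so the lists are described by counts and medians. Same-numbered miR-205 and miR-NC arrays deviated from their group means with correlations of -0.08, 0.14 and -0.04. No pairing by number was evident, though groups of 3 arrays cannot exclude it, and the samples were treated as unpaired. The fitting steps were tested on simulated data first. Arrays give no read depth, so precision is set by how many arrays a group has.

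Genes were named by rule: the 10 largest called rises and falls without overlap between arrays, up to 5 called members of each list in each direction, any member of the lists of sensors, ligands and receptors, signalling, published targets, EMT factors, keratins, basement membrane and prostate lineage, the 5 highest and 5 lowest genes against miR-203a, and the 3 highest and 3 lowest differences between lines. Markers of line identity and blood cells and the control probe sets were named as checks. APOBEC3G and ELOVL6 were named outside these rules, as the effector that was not called and as the lipid synthesis gene called higher against miR-203a. Alternatives were all 45 arrays, only the arrays of the lines compared, a replicate block, quantile and median scaling, other filters on dim probe sets, averages over all probe sets per gene, omission of probe sets whose ID ends in _x_at or _s_at, another prior of the variance, a 2-fold minimum, single arrays left out, and miR-203a as the control. Sequences came from RefSeq tables on GRCh38.p14, and promoters matched 11991 of the tested genes.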

Additional observations from a re-analysis of the deposited data

Results flagged for a closer look

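The response to miR-205 was set against that of the other lines by a test of the difference itself. It differed between PC3 and HEY for 7888 genes (52.5%) and between PC3 and SKOV3 for 7425 genes (49.4%), by limma's interaction term with adjusted p under 0.05.

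Against HEY the responses that exceeded by most were those of TRIM22 (7.66), MX1 (6.96) and CXCL10 (6.22), on the log2 scale. TRIM22 changed by 4.93 ± 0.28 in PC3 and -2.73 ± 0.28 in HEY. The responses that fell short by most were those of SLC26A5-AS1 (-3.80), SSTR5-AS1 (-3.59) and PNMA8A (-3.49). PNMA8A, a paraneoplastic antigen gene, changed by -0.32 in PC3, which was not called, and by 3.17 in HEY, so its difference came with the value in HEY. SLC26A5-AS1 and SSTR5-AS1 lay near background in both HEY groups, at means of 1.98 and 3.34 with miR-205 against 1.95 and 2.88 with miR-NC, so a fall there could not have been seen.

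Against SKOV3 the responses that exceeded by most were those of OASL (6.28), MX1 (6.15) and CXCL10 (6.09). OASL changed by 6.32 ± 0.26 in PC3 and 0.04 ± 0.26 in SKOV3. The responses that fell short by most were those of PCDHB16 (-4.17), ASPH (-3.77) and SLC26A5-AS1 (-3.76). ASPH, an aspartyl hydroxylase, changed by 0.39 in PC3, against 4.17 in SKOV3, and PCDHB16 by -3.22 against 0.96. SLC26A5-AS1 lay near background in both SKOV3 groups as well, at 1.61 with miR-205 against 1.62 with miR-NC. The part of the control probe sets, which differed between the groups of PC3 and HEY and hardly between those of SKOV3, was not tested. In groups of 3 arrays no single array was tested as an outlier.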

How the results depend on the processing

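Of the antiviral effectors, 53 were called higher under all settings run except the mean of probe sets (54), the 2-fold minimum (52) and the leaving out of probe sets whose ID ends in _x_at or _s_at, where 38 of the remaining 39 were called. The counts of called genes stayed within 1.5 times of those reported except with a 2-fold minimum, where they were 2569 against miR-NC, 744 against miR-203a, 3777 for PC3 minus HEY and 3283 for PC3 minus SKOV3, and with miR-203a in place of miR-NC (4814). Leaving out single arrays gave 7542 to 7870 genes against miR-NC, 3676 to 4692 against miR-203a, 7380 to 7786 for PC3 minus HEY and 6857 to 7215 for PC3 minus SKOV3. With the replicate block the counts were 8158, 4657, 7782 and 7326, and of the 156 genes named against miR-NC only E2F1 lost its call. Counted over those genes and the fits that left out 1 array, call and direction were kept in 893 outcomes, the call was lost in 40 and gained in 3. The ACTB 3′ difference was 0.17 after quantile normalization.

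With miR-203a as the control the values of 51 of the 156 genes changed sign with a call in at least 1 of the 2 comparisons. Sign changes without any call were not counted, and the cause was not tested. Positive against miR-203a and negative against miR-NC were, with a call against miR-203a, IFNE (0.51), JAK2 (1.89), NFKBIZ (0.73), BCL2L11 (1.32), ZEB1 (0.31), ZEB2 (0.91), SNAI2 (0.76), LAMC1 (0.25), DST (0.26) and MMP3 (1.47), and without one PIAS1 (0.10), TNFSF13B (0.32), TWIST1 (0.14), COL3A1 (0.49), PCDHB16 (0.20), SYT15-AS1 (0.26) and LHX9 (0.12). JAK2 was not called against miR-NC. Negative against miR-203a and positive against miR-NC were, with a call against miR-203a, MAVS (-0.54), BAX (-0.53), INPPL1 (-0.57), KRT7 (-0.70), SPINT1 (-0.76), ITGB4 (-0.88), VIM (-0.84), HOXB13 (-1.0), IDI1 (-0.26), ID1 (-0.63), VARS1 (-0.44), TMPRSS2 (-0.72), MYBL2 (-0.91), PLK1 (-1.47), RPL29 (-1.01) and RPS9 (-0.96), and without one IRF3 (-0.12), IL10RB (-0.033), TYK2 (-0.13), TNIP1 (-0.31), BCL2L2 (-0.028), DDX5 (-0.0070), KRT8 (-0.28), KRT18 (-0.22), ST14 (-0.22), LAMB3 (-0.029), LOXL2 (-0.0064), TIMP1 (-0.37), ATF4 (-0.033), HSPB1 (-0.080), TGFB1 (-0.48), TARBP2 (-0.048), CCND1 (-0.38) and POLD1 (-0.16). Other probe sets changed the sign of CGAS (0.68) and TGFB1 (-0.52) with the arrays of PC3 only, TNIP1 (-0.33), IDI1 (-0.34), TGFB1 (-0.52) and, against miR-203a, TMT1A (0.12) without _x_at and _s_at probe sets, ELF3 (0.18), LAMC1 (0.076), VIM (-0.37) and RPS7 (0.39) with the mean of probe sets, and LHX9 (0.57) without the filter. Levels near background limit the size of changes: 640 of the genes called higher had a miR-NC mean under 4.88.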

Other observations

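Other gene groups were described by the same counts. Of all genes 31.4% were called higher and 23.4% lower against miR-NC, and 16.5% and 15.5% against miR-203a. Of 25 tested genes of TGF-beta and bone morphogenetic protein (BMP) signalling, 7 were called higher and 8 lower against miR-NC, and 2 higher and 7 lower against miR-203a. BMP2, a secreted BMP, was at 4.97, 4.65 and 5.23 on the miR-205 arrays, against 5.44, 5.82 and 5.84 on the miR-203a arrays and 7.47, 7.44 and 7.37 on the miR-NC arrays, so the groups did not overlap and it fell by 2.48 against miR-NC and 0.75 against miR-203a. ID1, a BMP-induced inhibitor of transcription factors, and TGFB1, which encodes TGF-beta, were higher against miR-NC (2.71 and 2.47). Against miR-203a ID1 fell by 0.63 and TGFB1 had -0.48 (not called), and a further probe set of TGFB1 fell by 0.52 against miR-NC.

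In the miRNA machinery 4 of 12 were called higher and 5 lower against miR-NC, beside 31.4% and 23.4% of all genes. Against miR-203a 3 were higher and 2 lower. TNRC6C, a partner of Argonaute, lay between 5.0 and 5.95 on the miR-205 arrays, against 6.25, 6.58 and 6.58 on the miR-203a arrays and 7.41, 7.17 and 7.15 on the miR-NC arrays. It fell by 1.73 against miR-NC and 0.96 against miR-203a. TARBP2, a partner of Dicer, rose by 1.27 against miR-NC and had -0.05 (not called) against miR-203a. Of 22 genes of cholesterol and fatty acid synthesis, 13 were higher and 4 lower against miR-NC, and 1 higher and 7 lower against miR-203a. SQLE, the squalene epoxidase, fell by 1.08 and 0.88, whereas ELOVL6, a fatty acid elongase, rose by 0.90 and 1.48, and IDI1 rose by 1.30 against miR-NC and fell by 0.26 against miR-203a.

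Among 15 aminoacyl-tRNA synthetases 12 were higher and 1 lower against miR-NC, and 4 higher and 2 lower against miR-203a. WARS1, known to be raised by interferon, rose by 1.36 and 0.98, while VARS1 rose by 2.39 against miR-NC and fell by 0.44 against miR-203a. Of 13 heat shock genes 9 were higher and 1 lower against miR-NC, and 2 higher and 4 lower against miR-203a. BAG3, a co-chaperone, fell by 0.63 against miR-NC and by 0.45 against miR-203a. In the prostate list 5 of 10 were higher and 1 lower against miR-NC, and 2 higher and 2 lower against miR-203a. STEAP1, a membrane protein of prostate cells, rose by 0.67 and 1.37, and HOXB13 and TMPRSS2 were higher against miR-NC (0.63 and 0.73) and fell by 1.0 and 0.72 against miR-203a.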
